A study of Rattus norvegicus with 72 samples.

Results

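The cytosolic ribosomal proteins are the proteins of the ribosome that works in the cell fluid, and their transcripts were measured here in rat livers after acetaminophen, a painkiller whose overdose damages hepatocytes. The genes were taken by symbol: every array probe whose platform annotation gives Rpl or Rps followed by a digit, or Rpsa, leaving out the Rps6k kinases, pseudogenes and symbols with an l after the number. This gave 46 genes, 26 of the large subunit and 20 of the small subunit, on 50 of the 20500 probes of the array, and all 46 were among the 17299 genes and unnamed probes tested. Liver RNA of 36 rats, in 12 groups of 3, had been hybridised on 72 arrays of the 2-colour kind, so that each value is a ratio of 1 treated rat to a control. The rats had received acetaminophen in methyl cellulose by gavage at 50, 150, 1500 or 2000 mg/kg, and the left liver lobe was taken at 6, 24 or 48 h. The control of each dose and time was RNA of rats given the vehicle, pooled for 10 of the groups per the titles, and called a mock control liver for 150 mg/kg at 6 h and a sham or a mock control on the arrays of 150 mg/kg at 24 h. The labels give neither strain, sex nor age, and the pool has no spread of its own in these data.

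Ribosomes are built from ribosomal RNA and ribosomal proteins. The small subunit reads the mRNA and the large subunit joins amino acids, and liver cells, which export most plasma proteins, are rich in both. Ribosomal protein mRNAs typically begin with a C and an uninterrupted stretch of pyrimidines, the 5′ terminal oligopyrimidine tract, through which the mTOR kinase and the RNA-binding protein LARP1 control their translation. Their amount in the RNA and their translation are separate steps, and an array reads only the amount. Some ribosomal proteins have known roles outside the ribosome: Rpl5 and Rpl11, which form a particle with 5S ribosomal RNA, can bind the p53 ligase Mdm2 when ribosome assembly is disturbed.

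Runs of pyrimidines near the annotated start were counted in the RefSeq promoters (assembly GRCr8), of which 37 of the 46 genes had one. A counted run need not touch the start: it lay at -25 to -17 in Rps6 and at 15 to 25 in Rps19. The counts are therefore not counts of 5′ terminal tracts. Within 25 bases on each side of the annotated start, an uninterrupted run of at least 8 C or T lay on the sense strand in 30 of the 37 (81.1%), against 17.7% of the 8324 other array genes with a promoter and 19.3% of all 33432 other promoters. The median longest run was 11 bases in the ribosomal protein genes and 5 bases in the other array genes. The letters CTTTCC occurred there in 37.8% of the ribosomal protein genes and 2.3% of the other array genes, CTCTTT in 29.7% and 1.6%, and CTTTTC in 18.9% and 1.7%; these 3 words can overlap each other and the runs. Over all 300 bases and both strands, CCGGAAG was found in 27.0% against 14.4% of the other array genes, AAGATGGC in 10.8% against 4.6%, and TATAAA in 2.7% against 8.5%. The windows below run from 30 bases before the start to 20 bases from it, with the longest run that lies within 25 bases of the start in capitals. They are shown for genes that rose most at 48 h, for genes that rose less, and for Rpl34, which did not pass the test.
Rps24, chr16:96487-96536, plus strand: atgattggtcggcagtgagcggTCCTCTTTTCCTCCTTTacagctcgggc
Rps12, chr1:23500045-23500094, plus strand: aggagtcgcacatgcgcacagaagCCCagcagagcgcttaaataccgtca
Rpl13, chr19:68062484-68062533, plus strand: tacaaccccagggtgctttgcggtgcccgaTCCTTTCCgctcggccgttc
Rpl9, chr14:43247560-43247609, plus strand: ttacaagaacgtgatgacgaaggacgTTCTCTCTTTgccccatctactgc
Rps23, chr2:23814487-23814536, plus strand: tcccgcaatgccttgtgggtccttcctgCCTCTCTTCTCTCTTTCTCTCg
Rpl10, chrX:157205820-157205869, plus strand: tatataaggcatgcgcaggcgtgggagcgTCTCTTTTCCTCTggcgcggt
Rps26, chr7:1643385-1643434, minus strand: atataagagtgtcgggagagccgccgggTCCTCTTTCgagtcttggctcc
Rpl34, chr2:221962264-221962313, minus strand: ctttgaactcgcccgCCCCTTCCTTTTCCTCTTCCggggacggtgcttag
A long run did not always go with a large response in the values given below, and no correlation of the 2 was computed. Rps12, with 3 bases, had one of the highest differences between dose levels, and Rpl34, with 20 bases, had the lowest at 48 h. Whether the probe of Rpl34 reads the named transcript was not tested. The median difference between dose levels was 0.82 at 24 h and 0.94 at 48 h on the log2 scale for the 30 genes with a run of at least 8, and 0.88 and 0.91 for the 7 genes with a shorter run. These are descriptions of annotated starts, which need not be the starts used in liver.

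Values below are log2 ratios of a treated rat to its control, averaged over 2 arrays with exchanged dyes, so that 1 is a 2-fold ratio. A gene is called where limma, fitted over all 36 rats and all genes, gave a Benjamini-Hochberg adjusted p below 0.05 (two-sided), and "rose" and "fell" are used only of called genes. The direction, red over green, is the convention of the scanner software and is not stated in the labels: it is likely, and every sign would turn if it were the other. The median over all 17299 genes and probes lay between -0.06 and 0 in every rat of the 2 high doses at 24 and 48 h, and ribosomal protein values are read against that. The deposited arrays were already centred, so a median near 0 was set by the processing. Each value is therefore relative to the other genes on the array. Ratios carry no level, so how abundant a transcript was, hepatocyte markers included, was not tested. In whole liver, a change in the share of a cell type and a change in RNA per cell cannot be told apart.

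Ribosomal protein transcripts rose together in the livers of rats given 1500 or 2000 mg/kg at 24 h and at 48 h, in both subunits. At 24 h, 45 of 46 rose at 1500 mg/kg (18.3% of all genes and probes rose) and 43 of 46 at 2000 mg/kg (24.1%), where 1 fell (22.9%). At 48 h, 44 rose at 1500 mg/kg (26.3%) and 45 at 2000 mg/kg (27.3%). With a change of at least 1.5-fold required as well, the counts were 41 and 39 at 24 h (7.14% and 10.3% of all) and 42 and 38 at 48 h (13.3% and 12.8%). The median over the large subunit genes was 0.82 at 1500 mg/kg and 0.87 at 2000 mg/kg at 24 h, and 1.14 and 0.97 at 48 h. For the small subunit genes these medians were 0.82 and 0.90 at 24 h, and 1.26 and 0.96 at 48 h. The median over all genes and probes was within 0.06 of 0 in these 4 groups.

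The rats of a group did not respond equally, and each rat moved as a whole. At 24 h the median over the 46 genes was 0.99, 0.99 and 0.51 in the 1500 mg/kg rats, and 0.62, 1.05 and 1.04 in the 2000 mg/kg rats. At 48 h it was 1.05, 1.35 and 1.22 at 1500 mg/kg, and 0.77, 0.72 and 1.33 at 2000 mg/kg. One rat in each 24 h group (rat 3020 at 1500 mg/kg, rat 3105 at 2000 mg/kg) stood below the other two, and one 2000 mg/kg rat at 48 h (rat 3119) stood above them. All 12 of these rats lay above all 24 others, whose highest median was 0.31, in a rat given 50 mg/kg at 48 h. In the 12 high-dose rats the array pairs gave the same picture in each dye orientation. At 1500 mg/kg and 24 h the array medians were between 0.53 and 1.06 with the treated RNA in Cy3, and between 0.51 and 0.90 with it in Cy5. The arrays of rat 3151, the 50 mg/kg rat at 0.31, were less alike. They gave 0.16 in Cy3 and 0.48 in Cy5, the widest gap of any rat.

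**Figure D1:**
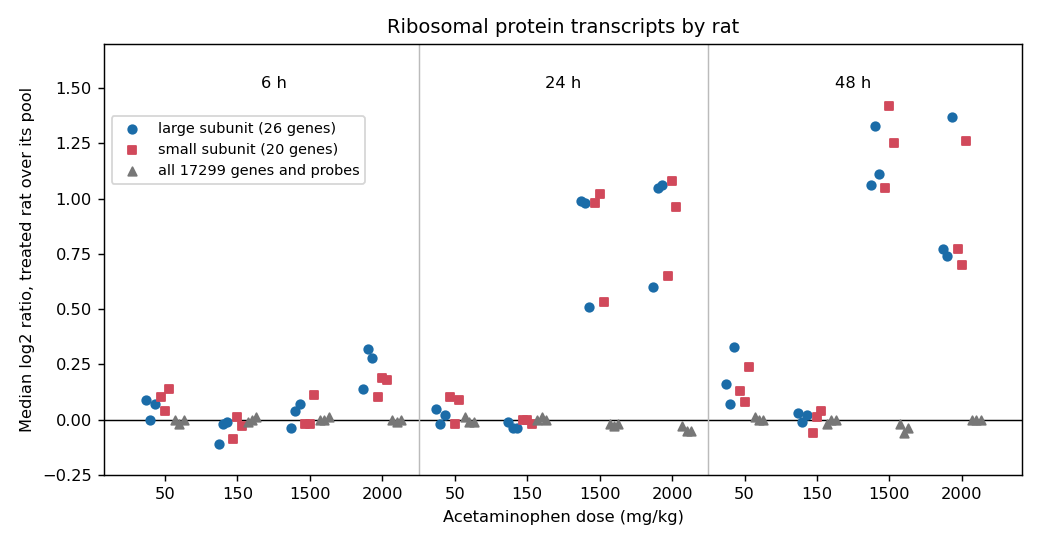
Median log2 ratio of treated rat over its pool (y axis) for each of the 36 rats, by dose in mg/kg (x axis) and time (panels), over 26 large subunit genes (circles), 20 small subunit genes (squares) and all 17299 genes and probes (triangles). At 24 and 48 h the rats given 1500 or 2000 mg/kg lie at 0.51 or above for both subunits. The medians over all genes stay near 0, on arrays that were centred before deposit.

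The doses were compared as the mean of the 1500 and 2000 mg/kg groups against the mean of the 50 and 150 mg/kg groups at the same time, which are 4 different pools. The standard errors and p-values of this comparison leave out the spread between pools. At 24 h, 44 of 46 genes were higher at the high doses (17.3% of all genes and probes) and at 48 h, 44 of 46 again (19.2%), 40 of them by at least 1.5-fold at each time (6.56% and 8.26% of all). The median difference was 0.85 at 24 h and 0.89 at 48 h, against -0.02 and -0.03 over all genes and probes. With arrays scaled to equal spread, the median difference of the 46 genes was lower, 0.62 at 24 h and 0.60 at 48 h. In 38 of the 46 genes at 24 h, and 35 at 48 h, all 6 high-dose rats lay above all 6 low-dose rats, which held for 6.27% and 9.73% of all genes and probes. The genes that did not pass were Rpl34 and Rps20 at both times.

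Among small subunit genes, Rps24, Rps12, Rps6 and Rps19 had the highest differences at 48 h. Rps24, a protein mutated in the human anaemia of Diamond and Blackfan, stood at 1.42, 1.86 and 1.63 in the 1500 mg/kg rats and 1.27, 1.14 and 1.76 in the 2000 mg/kg rats at 48 h, against 0.11, -0.01 and 0.22 in the 50 mg/kg rats and -0.11, -0.11 and 0.04 in the 150 mg/kg rats. The groups did not overlap, and the difference was 1.49 ± 0.11 (SE; 2.81-fold; limma adjusted p = 2.81e-11). Rps12 stood at 1.23, 1.84 and 1.59 at 1500 mg/kg and 1.36, 1.31 and 1.63 at 2000 mg/kg at 48 h, against 0.15, 0.05 and 0.27 at 50 mg/kg and -0.10, -0.19 and -0.13 at 150 mg/kg. Its difference was 1.48 ± 0.10 (SE; limma adjusted p = 9.25e-12), again with no overlap.

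Rps6, the protein that S6 kinases phosphorylate when mTOR is active, was among the 6 highest at both times. At 24 h its values were 1.40, 1.45 and 0.84 at 1500 mg/kg and 1.06, 1.5 and 1.18 at 2000 mg/kg, against 0.12, 0 and 0.08 at 50 mg/kg and -0.01, 0.01 and 0.03 at 150 mg/kg. The lowest of the high-dose rats was rat 3020, and it still lay above every low-dose rat. The difference was 1.20 ± 0.10 at 24 h (SE; limma adjusted p = 8.63e-10) and 1.33 ± 0.10 at 48 h (adjusted p = 1.26e-10). Rps19, also a gene of Diamond-Blackfan anaemia in humans, differed by 1.14 ± 0.12 at 24 h and 1.30 ± 0.12 at 48 h, and at 1500 mg/kg and 48 h it had the highest group mean of all 46, 1.72 ± 0.20 (SD, n = 3).

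Among large subunit genes, Rpl6, Rpl10a, Rpl8 and Rpl13 led at 24 h, and Rpl13 and Rpl9 at 48 h. Rpl6 stood at 1.42, 1.42 and 0.80 in the 1500 mg/kg rats and 1.10, 1.57 and 1.52 in the 2000 mg/kg rats at 24 h, against 0.14, 0.01 and -0.06 at 50 mg/kg and 0.07, 0.10 and 0.20 at 150 mg/kg. Its difference was 1.23 ± 0.11 (SE; 2.34-fold; limma adjusted p = 9.30e-10), the highest of the 46 at that time. Rpl9 stood at 1.44, 1.85 and 1.57 at 1500 mg/kg and 1.07, 0.99 and 1.65 at 2000 mg/kg at 48 h, against 0.14, 0.11 and 0.35 at 50 mg/kg and 0.02, 0.01 and 0.06 at 150 mg/kg. Every high-dose rat was above every low-dose rat, with a difference of 1.31 ± 0.11 (SE; limma adjusted p = 2.37e-10). The differences of Rpl13 were 1.17 ± 0.12 at 24 h and 1.46 ± 0.12 at 48 h, those of Rpl10a 1.22 ± 0.11 and 1.16 ± 0.11, and those of Rpl8 1.19 ± 0.12 and 1.07 ± 0.12 (SE).

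The partners of 5S ribosomal RNA rose with the rest. Rpl5 stood at 1.37, 1.26 and 0.89 at 1500 mg/kg and 0.95, 1.34 and 1.45 at 2000 mg/kg at 24 h, against 0.41, 0.13 and 0.29 at 50 mg/kg and 0.05, 0.14 and 0.03 at 150 mg/kg. Its difference was 1.03 ± 0.11 at 24 h and 1.00 ± 0.11 at 48 h (SE; limma adjusted p = 1.57e-08 and 2.10e-08). Rpl11 differed by 0.81 ± 0.11 and 0.91 ± 0.11. Rpl10, a protein that joins the large subunit late in its assembly, differed less, by 0.78 ± 0.09 at 24 h and 0.44 ± 0.09 at 48 h.

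**Figure D2:**
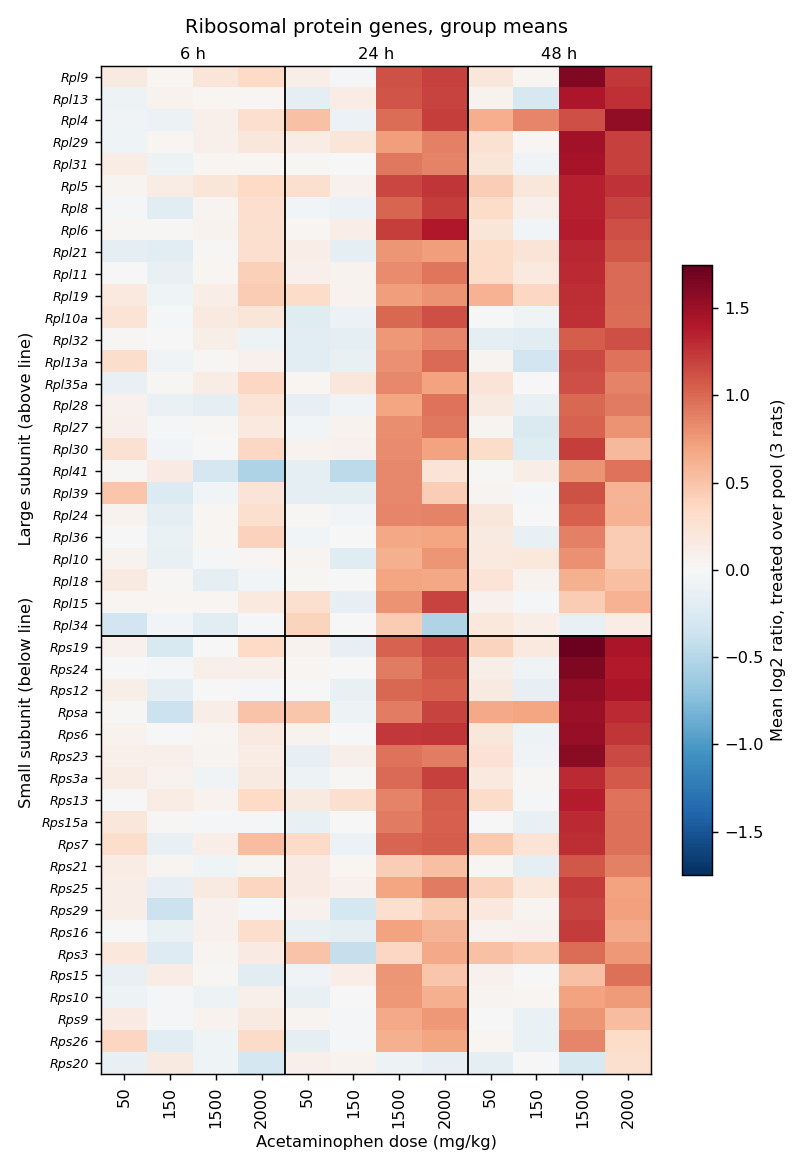
Mean log2 ratio over pool (colour, red above 0 and blue below 0) of each of the 46 genes (rows, large subunit above the line and small subunit below it) in the 12 groups of 3 rats (columns, dose in mg/kg within time). The columns of 1500 and 2000 mg/kg at 24 and 48 h are red for nearly every gene, with Rpl34 and Rps20 pale or blue, and Rpl4, Rpsa and Rps3 are also red at 50 and 150 mg/kg at 48 h.

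Rpl34 and Rps20 were not called between dose levels at 24 or 48 h. Rps20, a protein of the head of the small subunit, stood at -0.12, -0.56 and -0.11 in the 1500 mg/kg rats and 0.55, 0.37 and -0.07 in the 2000 mg/kg rats at 48 h, against 0.04, -0.25 and -0.28 at 50 mg/kg and -0.01, 0.05 and -0.04 at 150 mg/kg. The groups overlapped, and the difference was 0.09 with a 95% interval of -0.15 to 0.34 (limma adjusted p = 0.579). Set against its pool alone, the 2000 mg/kg group had a mean of 0.28 and was called (adjusted p = 0.0489), so Rps20 is among the 45 genes that rose there. Rpl34 stood at 0.25, -0.79 and 0.14 at 1500 mg/kg and 0.17, -0.26 and 0.49 at 2000 mg/kg at 48 h, against 0.78, -0.21 and 0 at 50 mg/kg and 0.14, 0.11 and 0.09 at 150 mg/kg. The rats at 50, 1500 and 2000 mg/kg were spread widely and those at 150 mg/kg were not, and the difference was -0.15, with a 95% interval of -0.50 to 0.20 (adjusted p = 0.521). At 24 h Rpl34 rose at 1500 mg/kg, with 0.31, 0.60 and 0.44, and fell at 2000 mg/kg, with -0.67 and -0.40 in the 2 rats that had a value. Both upper bounds at 48 h lie below the median difference of the 46 genes. In an observation made after the values were seen, the probes of Rpl34, Rps20 and Rps3 are the only 3 of the 46 genes annotated through an accession that is no RefSeq transcript, and these 3 genes had the lowest differences at 48 h. Whether those probes read the named transcripts was not tested.

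Rps3, a protein at the mRNA entry of the small subunit, rose less than most. At 48 h it stood at 1.03, 1.01 and 0.89 at 1500 mg/kg and 0.67, 0.59 and 1.03 at 2000 mg/kg, against 0.50, 0.43 and 0.62 at 50 mg/kg and 0.38, 0.52 and 0.47 at 150 mg/kg. The low-dose rats were themselves above their pools, and the difference between dose levels was 0.38 ± 0.08 (SE; limma adjusted p = 0.000484). That call was lost with a random block for each group of 3 rats, since each group has its own control (adjusted p = 0.118) and with arrays scaled to equal spread, where the difference was 0.09 (adjusted p = 0.456). At 24 h its difference of 0.46 ± 0.08 (adjusted p = 6.70e-05) rests on the 150 mg/kg group, in which Rps3 fell (-0.41, -0.33 and -0.49) and whose controls carry 2 names: against 50 mg/kg alone the difference was 0.01, and it was not called, nor was it with the random block (adjusted p = 0.0691). Rps21 and Rps29, both small proteins of the small subunit, differed by 0.39 ± 0.09 and 0.49 ± 0.09 at 24 h, and by 1.06 ± 0.09 and 0.84 ± 0.09 at 48 h. Rpl18 and Rpl15 were at the low end of the called genes at 48 h, with 0.42 ± 0.09 and 0.50 ± 0.14, and Rpl19 at 24 h, with 0.57 ± 0.13. In limma the calls of Rpl15 at 48 h (adjusted p = 0.0800 with the random block), Rps21 at 24 h (0.0540 with scaled arrays) and Rps29 at 24 h (0.0524 against 50 mg/kg alone) were lost.

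**Figure D3:**
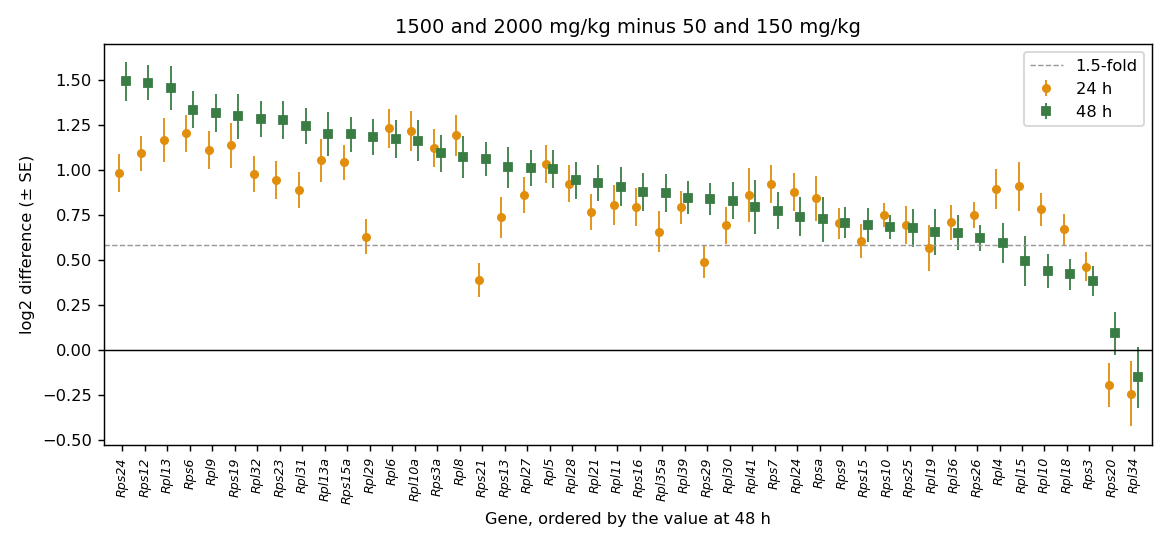
Difference in log2 ratio, mean of 1500 and 2000 mg/kg minus mean of 50 and 150 mg/kg (y axis, bars are the standard error of the fit), for each of the 46 genes (x axis, ordered by the value at 48 h), at 24 h (circles) and 48 h (squares). Values at 48 h run from 1.49 for Rps24 to -0.15 for Rpl34, and Rps21 and Rpl29 are the genes with the widest gap between a high value at 48 h and a lower one at 24 h.

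The 2 high doses were close to each other for most of the genes at 24 h and less so at 48 h. At 24 h, 2000 minus 1500 mg/kg gave 2 lower genes (5.37% of all genes and probes were lower), Rpl34 at -0.98 ± 0.27 and Rpl39, a protein of the exit tunnel, at -0.42 ± 0.13 (SE), and leaving out single rats gave 0 to 3. At 48 h, 8 of 46 were lower at 2000 mg/kg (7.04% of all) and 2 were higher (7.81%), with a median difference of -0.25 over the 46. The count of lower genes is above its background share and that of higher genes below it. The lower genes were Rpl24, Rpl30, Rpl36, Rpl39, Rps16, Rps25, Rps26 and Rps29, and the higher ones were Rps15 and Rps20. Rps26 stood at 0.23, 0.20 and 0.52 at 2000 mg/kg, against 0.66, 1.03 and 0.87 at 1500 mg/kg, without overlap, and its difference was -0.54 ± 0.10 (SE; limma adjusted p = 0.00172). Rps29 stood at 0.53, 0.63 and 1.01 at 2000 mg/kg, against 0.99, 1.30 and 1.24 at 1500 mg/kg, with the highest 2000 mg/kg rat reaching into the 1500 mg/kg range. The count turned on single rats: it was 22 without rat 3119, the highest of the 2000 mg/kg rats, and 4 without rat 3007, the highest of the 1500 mg/kg rats.

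At 6 h the genes moved little. At 1500 mg/kg, 0 of 46 were called by limma (14.4% of all genes and probes rose and 14.8% fell), and 0 reached an unadjusted p below 0.05 (40.8% of all). At 2000 mg/kg, 18 rose (17.2% of all) and 1 fell (15%), all by less than 1.5-fold, and the rat medians were 0.13, 0.24 and 0.24. The count that rose is above its background share, and the count that fell is below it. The highest means were those of Rps7, with 0.39, 0.55 and 0.70, Rpsa, with 0.37, 0.54 and 0.59, and Rpl19, with 0.35, 0.48 and 0.49. The number called in either direction at 2000 mg/kg was between 5 and 12 when a single rat was left out, and the lowest was without rat 3095. Between dose levels, 6 genes were higher (16.3% of all), namely Rpsa, Rpl21, Rpl35a, Rpl11, Rps25 and Rpl36, and Rpl41 was lower (16.5%). With the random block limma called 0 of these 7 genes, and leaving out single rats gave 3 to 12 calls among the 46. The share of higher genes is below that of all genes, and in 0 of 46 genes did all high-dose rats lie above all low-dose rats (6.58% of all). Rpl41, a very short protein, stood at -0.25, -0.25 and -1.11 at 2000 mg/kg and -0.24, -0.19 and -0.44 at 1500 mg/kg, against -0.34, -0.08 and 0.50 at 50 mg/kg and -0.08, 0.28 and 0.22 at 150 mg/kg, and 1 rat carried most of the 2000 mg/kg mean. Between the 2 high doses at 6 h, limma called 0 of 46 (0.763% of all were higher and 0.462% lower), and 8 of the 46 had an unadjusted p below 0.05 (16.3% of all).

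The step between 6 and 24 h was tested as the difference between the high-against-low contrasts at these times. It was positive in 41 of 46 genes (12.6% of all genes and probes), with a median of 0.73. The genes that did not pass were Rpl19, Rpl34, Rpl35a, Rps20 and Rpsa. With the random block 25 of the 46 passed. From 24 to 48 h the difference was positive in 3 of 46 (6.38%), Rps21 by 0.67 ± 0.13, Rpl29 by 0.55 ± 0.14 and Rps24 by 0.51 ± 0.15 (SE), and the share is close to the background. With the random block 0 of the 46 passed this step, and with a change of at least 1.5-fold required 1 did. Rps21 stood at 1.03, 1.29 and 0.94 at 1500 mg/kg and 0.73, 0.72 and 1.20 at 2000 mg/kg at 48 h, and at 0.50, 0.62 and 0.15 and 0.27, 0.66 and 0.63 at 24 h in the same order of doses.

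At the low doses a few genes rose. At 50 mg/kg, 2 of 46 rose at 6 h (3.17% of all), 4 at 24 h (9.5%) and 12 at 48 h (10.3%). At 150 mg/kg, limma called 0 at 6 h (0.0347% of all rose and 0.0116% fell), with 6 at an unadjusted p below 0.05 (7.94% of all). At 24 h 1 of the 46 fell at 150 mg/kg (0.145%) and at 48 h 3 rose (5.09%). The count of 12 at 48 h is above its background share, and each of the other counts of called genes is within 1 gene of its own. The 6 genes counted without adjustment for 150 mg/kg and 6 h also exceed their background share. All 6 had means below 0 there, and they were not called. The means were -0.38 for Rpsa, -0.37 for Rps29, -0.27 for Rps19, -0.24 for Rpl39, -0.22 for Rps3 and -0.19 for Rps26. Rpsa, a small subunit protein first described as a laminin receptor, stood at 0.69, 0.70 and 0.61 at 50 mg/kg and 0.38, 0.71 and 0.98 at 150 mg/kg at 48 h, and at 0.69, 0.44 and 0.34 at 50 mg/kg at 24 h. Rpl4, which lines the exit tunnel, stood at 0.74, 0.62 and 0.53 at 50 mg/kg and 0.65, 0.97 and 0.95 at 150 mg/kg at 48 h, with means of 0.63 ± 0.11 and 0.86 ± 0.18 (SD, n = 3 each; limma adjusted p = 0.000500 and 2.75e-05). Rps3 rose in the same 3 groups. These 3 genes rose at 50 mg/kg at 24 and 48 h and at 150 mg/kg at 48 h, while 34 of the 46 did not pass at 50 mg/kg and 48 h and the median there was 0.19. Without rat 3151 the count of 12 was 5. With the 3 rats of a group fitted alone, limma called 0 of the 46 at either low dose at 24 and 48 h.

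Across the 36 rats, most of the genes followed the median of the other 45 closely. The correlation was highest for Rpl9 (r = 0.992) and was 0.984 for Rps6 and Rps3a, while it was 0.729 for Rps3, 0.720 for Rpl15, 0.006 for Rpl34 and -0.245 for Rps20. These correlations describe rats that fall into high-dose and other groups, with all genes read on the same arrays, and carry no test. Across the 46 genes the group means at 2000 and 1500 mg/kg correlated at r = 0.771 at 24 h and 0.770 at 48 h, from different rats and pools, and the high-against-low differences at 24 and 48 h at 0.768, against 0.128 between 24 and 6 h. The 4 genes with 2 probes (Rpl24, Rpl27, Rps16 and Rps3a) had no group in which the probes lay on opposite sides beyond 1.5-fold. For genes that rose, this says little about how alike the probes were. The widest gap was 0.63 for Rps16 at 1500 mg/kg and 48 h, with probe means of 1.54 and 0.91. At 2000 mg/kg its probes stood at 0.89 and 0.30 at 24 h, and at 0.94 and 0.39 at 48 h.

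Other genes of ribosome production and translation were set beside the ribosomal proteins. Over all genes and probes, 17.3% were higher and 14.5% lower at the high doses at 24 h, and 19.2% were higher and 19.9% lower at 48 h, and the counts of each list are to be read against these shares. Of 44 measured genes of ribosomal RNA synthesis and ribosome assembly, 29 were higher and 3 lower at the high doses at 24 h, with a median of 0.56, and 24 were higher and 4 lower at 48 h, with a median of 0.31. The assembly factors Nop58 and Nop56, core proteins of the particles that methylate ribosomal RNA, differed by 2.28 ± 0.17 and 1.80 ± 0.12 at 24 h and by 1.23 ± 0.17 and 1.06 ± 0.12 at 48 h (SE). The assembly list was higher at 24 h than at 48 h in its median, and the ribosomal protein list was 0.85 and 0.89 at these times; this difference between the lists was not tested. Surf6, a nucleolar protein, was lower, by -0.73 ± 0.19 and -1.57 ± 0.19.

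Among 14 elongation factors and other genes whose mRNAs carry the pyrimidine tract, 13 were higher at 24 h (median 0.60) and 10 at 48 h (median 0.44). The nucleolar chaperone Npm1, counted there, differed by 1.77 ± 0.13 and 1.17 ± 0.13. Eef1b2, an exchange factor of elongation, differed by 1.35 ± 0.15 and 1.07 ± 0.15, and Eef1g by 0.98 ± 0.12 and 1.10 ± 0.12. Of 23 initiation factors, 20 were higher at 24 h (median 0.55), and 18 were higher and 1 lower at 48 h (median 0.45). Eif4a1, the helicase of initiation, differed by 1.30 ± 0.10 and 0.87 ± 0.10, and Eif2s1 by 1.27 ± 0.11 and 0.95 ± 0.11.

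The mitochondrial ribosome, a separate machine whose proteins are encoded in the nucleus, moved less. Of 44 genes, 21 were higher at 24 h (median 0.25) and 31 at 48 h (median 0.35), with 1 lower at 48 h. The group of symbols left out by the rule held Rplp0, the base of the P stalk of the large subunit, which differed by 1.00 ± 0.11 and 1.27 ± 0.11, and 3 paralogs that were called: Rpl37l1 (1.14 and 0.91), Rps27l, a p53 target (0.45 and 1.06), and Rpl36al1 (0.41 and 0.66). Rpl3l, a form known from muscle, was not called. Myc, a transcription factor that drives ribosome production, differed by 1.08 ± 0.20 at 24 h and 0.66 ± 0.20 at 48 h. Of 9 measured transcription factors of ribosomal genes, 5 were higher at 24 h and 3 at 48 h, and of 4 measured kinases with Rps6k symbols, 2 were higher at each time. Of 14 genes of mTOR signalling and of the control of pyrimidine-tract mRNAs, 4 were higher and 3 lower at each time, within 2 genes of the background counts, among them Eif4ebp1, a brake on cap binding (0.86 and 0.74), and Sesn2, an mTOR inhibitor (0.16 at 24 h, not called, and -0.98 at 48 h).

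**Figure D4:**
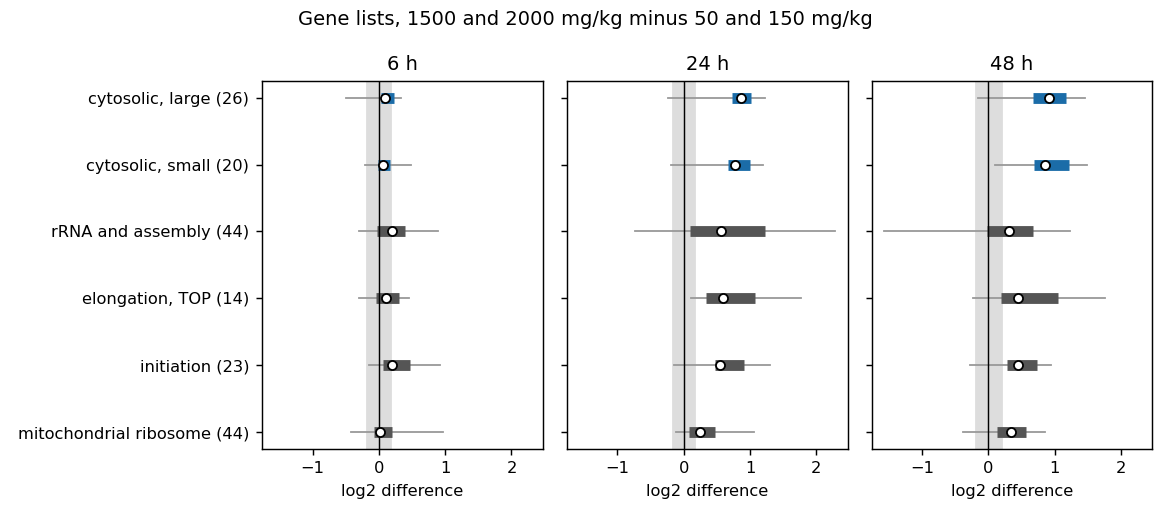
Differences in log2 ratio, 1500 and 2000 mg/kg minus 50 and 150 mg/kg (x axes), by gene list (rows, with the number of genes measured) at 6, 24 and 48 h (panels). White points are medians, thick bars the middle quartiles and thin lines the full range over genes, and the grey band holds the middle quartiles of all 17299 genes and probes. The cytosolic ribosomal proteins have medians of 0.77 to 0.92 at 24 and 48 h, with thick bars that lie above the grey band. The mitochondrial ribosomal proteins have medians of 0.25 and 0.35.

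Markers of other cells were read in the same rats, against the same background shares. Of the neutrophil genes (2 of 7 measured, S100a8 and S100a9), 1 was higher at 24 h and both at 48 h. They had rat medians between -0.08 and 1.71 at 1500 mg/kg and between 1.31 and 2.53 at 2000 mg/kg at 24 h, against 0.16 to 0.34 at 50 mg/kg and -0.52 to -0.02 at 150 mg/kg. At 48 h these were between 1.23 and 3.07 at 1500 mg/kg and between 0.30 and 1.5 at 2000 mg/kg, against -0.02 to 0.21 at 50 mg/kg and -0.03 to 0.29 at 150 mg/kg. Of the rats that stood apart for ribosomal proteins, rat 3020 was lowest of its group here (-0.08) and rat 3119 highest (1.5). Rat 3105 was lowest too (1.31, from 1 gene), but near the middle rat at 1.54, and the rat that stood apart was at 2.53. Such a spread was not particular to these genes. The rat medians of the mitochondrial ribosome were 0.17, 0.37 and 0.38 at 1500 mg/kg and 24 h. They were 0.24, 0.27 and 0.36 at 2000 mg/kg and 24 h, and 0.28, 0.29 and 0.75 at 2000 mg/kg and 48 h. Proliferation genes (8 of 10 measured) were all 8 higher at 48 h, with rat medians between 1.15 and 1.87 at 1500 mg/kg and between 1.05 and 2.30 at 2000 mg/kg, against -0.05 to -0.02 at 50 mg/kg and -0.06 to 0.05 at 150 mg/kg. At 24 h 3 were higher and 1 lower, and their rat medians were between -0.08 and 0.80 at 1500 mg/kg and between -0.26 and -0.02 at 2000 mg/kg, against -0.29 to 0.04 at 50 mg/kg and -0.03 to 0.03 at 150 mg/kg. Of 12 macrophage genes, 2 were higher and 2 lower at 24 h and 3 higher and 2 lower at 48 h, which is near the background, the highest being Gpnmb at 1.39 ± 0.29 and 3.60 ± 0.29. Of 11 lymphocyte genes, 1 was higher at 24 h and 2 lower at 48 h. Of 7 stellate cell and fibroblast genes, 1 was higher and 2 lower at 24 h, and 4 higher and 1 lower at 48 h. Endothelial genes had 1 higher and 2 lower of 6 at 24 h, and 3 higher and 1 lower at 48 h, and none of 4 cholangiocyte genes was called at either time by limma (1 at an unadjusted p below 0.05 at 24 h and 0 at 48 h). Both measured erythroid genes were lower at 48 h, and at 24 h limma called 0 of the 2 (1 at an unadjusted p below 0.05). Of 5 hepatocyte genes, Apoc3, Cps1 and Asgr1 were lower at both times, Fgb was higher at both times, and Apoa1 was higher at 48 h. The part of any of these in the ribosomal protein result was not tested.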

How the data were processed

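Rat liver RNA was measured on 2-colour Agilent rat oligonucleotide arrays, and the authors deposited 1 column of log10 ratios for each array, which per the labels come from a G2565AA scanner and the G2566AA Feature Extraction program of Agilent. Its settings were not given in the sources used here, and the log10 values stop at 2 in either direction. Column medians lie between -0.0191 and 0.019, so the arrays were centred by an unstated method.

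Ratios were converted to log2 and turned so that positive means more RNA in the treated rat, taking the deposited value as red over green and each channel's treatment and dye from the labels. Both arrays of a rat were required and averaged, then probes of the same symbol. Genes needed values from 2 rats in every group, which left 17299 of 17403, 9606 with a symbol and 7693 unnamed probes. Of the 20500 probes, 12750 had 1 symbol in the platform annotation, 5 had several and 7745 had none. Entrez identifiers matched 45 of the 46 ribosomal protein genes to the GRCr8 gene table, with no change of symbol.

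The 12 group means were fitted over 36 rats with limma 3.58.1 in R 4.3.3 (residual degrees of freedom 24, prior 3.277), and p-values were adjusted over all 17299 features by Benjamini-Hochberg. The pool counts as 1 control sample, so its own spread is left out. Intensities were not used here, so precision rests on 3 rats and 6 arrays a group. The scripts were tested on simulated ratios.

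Named genes are the 6 highest and 6 lowest in each high-against-low comparison, a fixed set chosen for known roles, and members opposite to the median. In the fixed set Rps14, Rps27a, Rpl3, Rpl22, Rpl23 and Rpl26 are not analysed here. Symbols left out by the rule, and up to 4 genes of each other list with the largest differences, are named too. Any other ribosomal protein gene is named as a member of a printed count or for its place in a group, chosen after its values were seen. The members, the gene lists and the tests were chosen with earlier results of these data known. Alternatives were a fold minimum, array scaling and centring, zeros as missing, the dye effect removed, arrays as observations, probes apart, complete values, a group fitted alone, group as a random block, 50 mg/kg alone, and each rat left out.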

Additional observations from a re-analysis of the deposited data

Results flagged for a closer look

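The differences listed here were found by an interaction term or a direct contrast in limma, between times or between the 2 high doses. Between 24 and 6 h, the difference of the high doses from the low doses grew in 41 of the 46 genes. Among the genes named by the rule, it grew by 1.36 for Rpl41, 1.19 for Rps15a, 1.14 for Rpl10a and Rps6, 1.11 for Rpl13, 1.08 for Rpl6 and 1.07 for Rps12 on the log2 scale. It grew by 0.92 for Rpl9, 0.91 for Rpl8, 0.88 for Rps24, 0.86 for Rpl18 and Rps19, 0.85 for Rpl5, 0.84 for Rpl15, 0.75 for Rpl10 and 0.69 for Rps15. The smaller ones were 0.52 for Rpl11, 0.49 for Rps21, 0.43 for Rpl21, 0.41 for Rps25, 0.35 for Rps3 and 0.34 for Rps29. With a random block for each combination of dose and time, 25 of the 46 passed the threshold.

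Between 48 and 24 h it grew in 3 genes, by 0.67 for Rps21 and 0.51 for Rps24 among those named by the rule. Between 2000 and 1500 mg/kg, 2 genes differed at 24 h, with -0.98 for Rpl34, whose 2000 mg/kg mean has 2 rats. At 48 h 10 genes differed, with 0.46 for Rps15, 0.55 for Rps20, -0.52 for Rps25 and -0.46 for Rps29. The causes were not tested.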

How the results depend on the processing

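No paired analysis was possible because the numbers in the labels name single rats and no number is shared between groups. The 44 genes higher at the high doses at 24 h and the 44 at 48 h were within 1.5 times of that count under every alternative, and were 44 without each rat. That band is wide, and the counts with the random block are not printed here. Only the random block allows for a spread between controls, since leaving out a rat keeps the controls the same. Leaving out single rats gave 43 to 44 called genes at 1500 mg/kg and 43 to 44 at 2000 mg/kg at 24 h, and 43 to 44 and 44 to 45 at 48 h. The small counts moved. They ran from 0 to 2 (50 mg/kg, 6 h), 0 to 2 (1500 mg/kg, 6 h), 5 to 12 (2000 mg/kg, 6 h), 1 to 4 (50 mg/kg, 24 h), 0 to 0 (150 mg/kg, 6 and 24 h), 5 to 9 (50 mg/kg, 48 h) and 2 to 3 (150 mg/kg, 48 h). Between dose levels at 6 h the count ran from 3 (without rat 3126) to 12 (without rat 3030), between the high doses from 0 to 1 (6 h), 0 to 3 (24 h) and 4 to 22 (48 h), and for the time steps from 37 to 43 and from 2 to 6. With a fold minimum, 0 were left at 50 mg/kg at 6 and 24 h, 2000 mg/kg at 6 h, 150 mg/kg at 24 h and between dose levels at 6 h, 3 at 50 mg/kg and 48 h, and 1 was left between the high doses at 24 h, at 48 h, and in the later time step.

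With arrays scaled to equal spread (by the median absolute value, since the planned function could not be fitted to ratios) the weakly responding groups gained calls: for 50 mg/kg 12, 7 and 25 in time order, and for 150 mg/kg 18, 15 and 14, of those 18, 15 lower, and 12 between dose levels at 6 h, 9 in the later time step, and 0 and 3 between the high doses at 24 and 48 h. Zeros as missing, or complete values, gave 1 between the high doses at 24 h, and complete values 1 at 50 mg/kg and 6 h. Arrays as observations gave 5, 1 and 2 at 6 h for 50, 150 and 1500 mg/kg, 2 and 8 for 150 mg/kg at 24 and 48 h, 12 between dose levels and 6 between high doses at 6 h, 17 between high doses at 48 h and 8 in the later time step. A group fitted alone gave 1 (50 mg/kg, 6 h) or 0 (both low doses at 24 and 48 h). Group as a random block gave 0 between dose levels at 6 h, 25 and 0 in the time steps, and 50 mg/kg alone gave 2 at 6 h. Of 61 results for named genes, 44 kept their call throughout. Rpl34 at 48 h ran from -0.25 (without rat 3150) to 0.013 (without rat 3007), so its sign rests on single rats, Rpsa (0.25), Rpl15 (0.34) and Rps3 (0.09) at 48 h and Rps21 (0.20) at 24 h lost theirs with scaled arrays, and Rps3 at both times and Rpl15 at 48 h with the random block. The causes were not tested.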
